A study of Mus musculus with 6 samples.

Results

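The genes for the proteins of the cytosolic ribosome were examined in RNA of whole embryonic mouse kidneys taken at E17.5. They were taken by name: every gene of the deposited table called Rpl or Rps followed by a digit, plus Rplp0, Rplp1, Rplp2 and Rpsa, without the 9 Rps6k kinase genes and the 4 names with -ps. This gave 79 of the 13203 genes, of which 47 are named for the large subunit and 31 for the small subunit. The remaining 1, Rps19bp1, encodes a protein that binds Rps19 and is not itself a ribosomal protein. Another 5 names are paralogs or copies of ribosomal protein genes (Rpl7l1, Rpl22l1, Rpl36al, Rps4y2 and Rps27l), which leaves 73 genes of the standard set. The name rule used no measured value.

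The mutant group was 3 kidneys labelled Six2Cre Brg1flx/flx, and the control group was 3 kidneys labelled Brg1 flx/flx. Both groups thus carry floxed alleles of Brg1 (gene symbol Smarca4), whose protein is the ATP-driven motor of SWI/SNF, a complex that moves nucleosomes, and the mutants alone are labelled with Cre. An effect of Cre itself and an effect of losing Brg1 therefore cannot be told apart here. Six2 is a gene of nephron progenitors, so its Cre acts in these cells and their descendants and not in all cells of the kidney, whereas RNA came from the whole organ. In such bulk samples, fewer cells of a type and less RNA per cell cannot be told apart.

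Total RNA was depleted of ribosomal RNA and sequenced. The value of a gene is the number of its bases covered by reads, summed over reads and scaled by the authors to a common library total, and 1000 such units are written here as 1 kb of coverage. It is not divided by gene length. The unscaled coverage was 934, 1209 and 1122 Mb in mutant libraries mut1, mut2 and mut3, and 726, 740 and 1126 Mb in control libraries con1, con2 and con3. The table holds genes whose higher group mean exceeded 3400 units, and ribosomal protein genes outside it, such as Rpl26, Rpl34, Rps28 and Rps29, were not analysed here. Of the 79 genes, 77 exceeded this level in both groups, and Rpl28 and Rps13 exceeded it in controls alone.

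Smarca4 itself had 316, 333 and 268 kb in mutant kidneys and 434, 419 and 371 kb in control kidneys (log2 fold change -0.42, SE 0.10, limma adjusted p = 0.00481). The groups did not overlap, in the direction that the labels give. All 12 kidney marker genes looked for (Pax2, Wt1, Nphs1, Umod and others) were in the table. At a limma adjusted p under 0.05, 11 of the 12 fell and 1 (Gata3) rose, with a median log2 fold change of -1.20. Over all genes, 24.6% fell and 21.5% rose. Pearson correlations of log2 coverage over all genes were 0.963 to 0.979 within groups and 0.880 to 0.902 between groups.

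The ribosome is built from a large subunit, which joins amino acids, and a small subunit, which reads the messenger RNA, and most of its proteins are needed in equal numbers. Mammalian ribosomal protein messages typically begin with a C followed by a run of pyrimidines, the terminal oligopyrimidine (TOP) motif, through which mTOR signalling controls their translation. Many of the genes carry small nucleolar RNAs (snoRNAs), guides for the chemical modification of ribosomal RNA, inside their introns. In humans, loss of 1 copy of any of several of them causes Diamond-Blackfan anaemia.

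The stretches around the annotated transcription start are shown for 10 of the genes, because start motif and change in coverage did not go together one to one. They come from RefSeq on build GRCm38.p6, run 5′ to 3′ on the gene's strand, and cover 30 bases before the start and 20 bases from the start on. Capitals mark a C followed by at least 6 more C or T, where such a run begins within 20 bases before to 20 bases after the start. The first 6 genes had such a run and fell in mutants:
Rpl35: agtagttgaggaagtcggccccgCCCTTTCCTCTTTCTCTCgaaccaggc
Rps10: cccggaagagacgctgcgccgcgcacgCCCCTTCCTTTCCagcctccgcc
Rps18: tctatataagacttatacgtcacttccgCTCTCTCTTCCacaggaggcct
Rpl38: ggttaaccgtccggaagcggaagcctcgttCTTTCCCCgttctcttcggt
Rps6: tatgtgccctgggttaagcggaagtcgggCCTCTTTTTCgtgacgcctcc
Rplp2: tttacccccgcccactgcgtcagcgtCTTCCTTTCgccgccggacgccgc
The next 2 also had a run, of 17 and 14 bases, but Rpl15 did not pass the test and Rpl14 rose:
Rpl15: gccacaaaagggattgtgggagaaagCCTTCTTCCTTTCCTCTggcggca
Rpl14: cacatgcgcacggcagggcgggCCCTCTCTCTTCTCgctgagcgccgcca
The last 2 had no run at the RefSeq start, and Rps3a1 rose whereas Rps7 fell:
Rps3a1: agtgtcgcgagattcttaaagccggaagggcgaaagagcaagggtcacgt
Rps7: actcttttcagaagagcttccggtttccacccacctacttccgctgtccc

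Most ribosomal protein genes had less coverage in mutant kidneys. In limma on log2(value + 1), with Benjamini-Hochberg adjustment over all 13203 genes and a threshold of 0.05, 64 of the 79 fell, 3 rose and 12 did not pass. The share that fell was 81.0%, against 24.6% of all genes tested, and the share that rose was 3.8%, against 21.5% of all genes (46.1% of all genes passed in either direction). The median log2 fold change (mutant over control) was -0.81 over the 79 genes and -0.03 over all genes. At least a 2-fold fall that passed the test was seen in 27 of the 79, against 6.16% of all genes. Without library mut2, in which most of these genes were lowest, 61 fell and 3 rose.

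All 3 mutant values lay below all 3 control values for 65 of the 79 genes, against 29.8% of all genes, and above them for 3, against 26.5% of all genes. An exact two-sided permutation test of 3 against 3 values cannot go below 0.1, which is the value for each of these 68 genes, so the calls rest on the limma fit across all genes. The log2 fold changes ran from -2.05 for Rpl12 to 1.15 for Rps3a1.

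**Figure D1:**
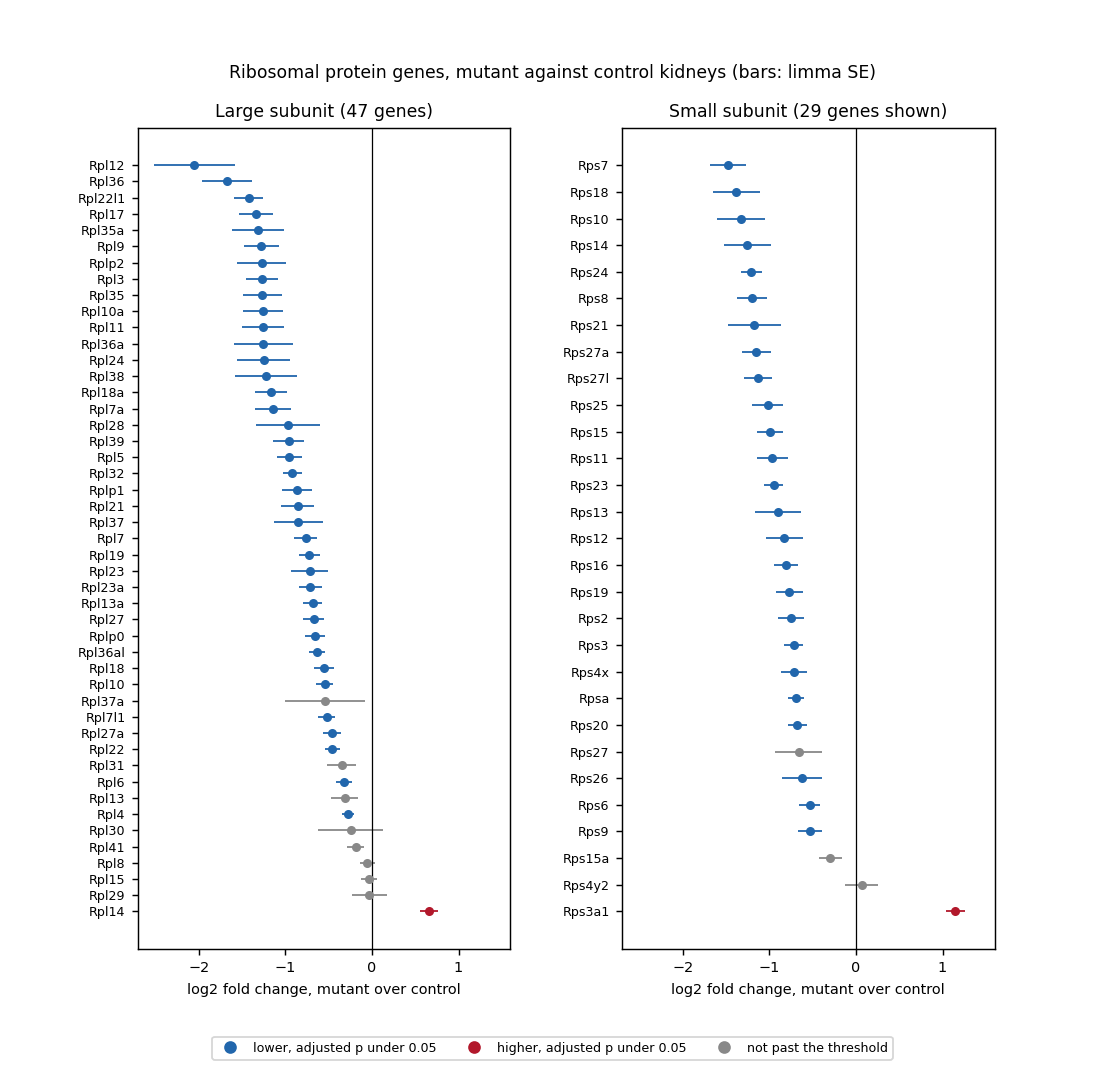
Log2 fold change (mutant over control) of the 47 large subunit genes and of 29 of the 31 small subunit genes, with the limma standard error as a bar. Most points of both subunits lie left of 0, and the 2 red points (Rpl14 and Rps3a1) lie right of it.

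As a share of the scaled coverage of a library, the 79 genes made up 0.875%, 0.724% and 0.875% in mut1, mut2 and mut3, and 1.22%, 1.21% and 1.18% in con1, con2 and con3. The mutant libraries were all below the control libraries, and the mean share in mutants was 0.686 times that in controls. The mutant libraries differed among themselves more than the controls did: the median deviation of the 79 genes from their control means was -0.59 in mut1, -1.14 in mut2 and -0.69 in mut3 on the log2 scale. In controls it was 0.06, 0.02 and -0.09. Library mut2 was the lowest of the 3 mutants for 61 of the 79 genes, against 32.0% of all genes. The order mut1, mut3, mut2 from high to low was found for 44 of the 79, against 19.5% of all genes, and the order con1, con2, con3 for 31, against 17.6%.

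The summed share of small RNA genes had the same order. The 110 genes of this class made up 1.19%, 0.614% and 0.963% of coverage in mut1, mut2 and mut3, and 3.33%, 2.98% and 2.67% in con1, con2 and con3. With these genes left out of the library totals, the mean share of the ribosomal protein genes in mutants was 0.672 times that in controls. Whether RNA recovery or library composition has a part in the fall of the ribosomal protein genes was not tested.

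**Figure D2:**
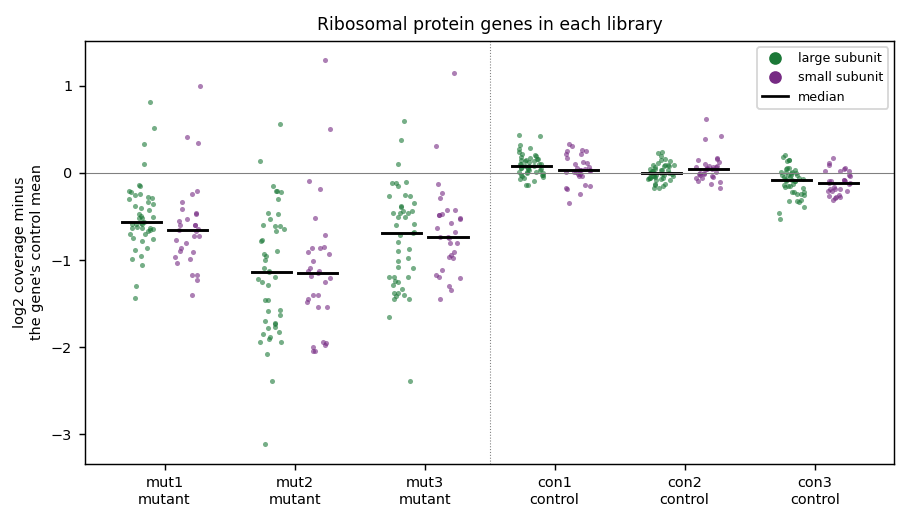
Each point is 1 ribosomal protein gene in 1 library, as log2 coverage minus the gene's mean log2 coverage in the 3 controls, and black lines are medians per subunit. The mutant medians lie between -0.56 and -1.15, lowest in mut2, and the control medians between -0.11 and 0.08.

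Large and small subunit genes fell in similar shares and by similar medians. Of the 47 large subunit genes, 38 fell and 1 rose, with 8 not past the threshold, and of the 31 small subunit genes, 26 fell and 2 rose, with 3 not past it. The shares that fell were 80.9% and 83.9%. The median log2 fold change was -0.76 for the large and -0.83 for the small subunit. Without the paralogs and copies, 35 of 44 large subunit genes (median -0.81) and 25 of 29 small subunit genes (median -0.83) fell.

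Within each library the subunits kept close to each other. The median deviation from the control mean was -0.56, -1.14 and -0.69 for the large subunit in mut1, mut2 and mut3, and -0.65, -1.15 and -0.73 for the small subunit. In con1, con2 and con3 it was 0.08, 0.00 and -0.08 for the large and 0.04, 0.05 and -0.11 for the small subunit. The difference between these medians, large minus small, was 0.09, 0.00 and 0.04 in the mutants and 0.05, -0.05 and 0.03 in the controls, so the groups overlapped. The ratio of large to small subunit coverage was 1.29, 1.28 and 1.25 in the mutants and 1.28, 1.22 and 1.24 in the controls, which also overlapped. These are descriptions over the genes and were not tested.

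In the large subunit, the 3 genes of the P stalk, the flexible arm that recruits translation factors, all fell. Rplp0, its base, had 477, 399.5 and 547 kb in mutant kidneys and 732, 805 and 694 kb in control kidneys (log2 fold change -0.66, SE 0.11, limma adjusted p = 0.000601). Its partners fell too: Rplp1 by 0.86 (adjusted p = 0.00196) and Rplp2 by 1.27 (adjusted p = 0.00378) on the log2 scale. With length and GC trends across genes removed, Rplp1 did not pass (log2 fold change -0.21, adjusted p = 0.0564). Rplp1 had 216, 117 and 153 kb in mutants and 316, 280.2 and 262 kb in controls, and Rplp2 23.2, 8.89 and 12.0 kb in mutants and 39.8, 33.3 and 26.3 kb in controls. The groups did not overlap for any of the 3.

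Rpl12, which sits at the foot of that stalk, had the largest fall of the 79 genes. It had 45.4, 8.18 and 13.5 kb in mutants, a mean of 22.4 ± 20.1 kb, and 95.3, 69.0 and 54.2 kb in controls, a mean of 72.8 ± 20.8 kb (SD, n = 3 each). The means differed 3.26-fold (log2 fold change -2.05, SE 0.46, limma adjusted p = 0.00398). The size of the fall depended on the library, since mut1 lay near the lowest control and mut2 far below. Across the alternative settings, Rpl12 stayed past the threshold with log2 fold changes of -2.75 to -1.52. The gene lies at chr2:32961559-32965345 on the plus strand (GRCm38).

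Rpl36, another large subunit protein, followed with 11.2, 4.25 and 7.03 kb in mutants and 24.6, 23.7 and 18.7 kb in controls. The groups were well apart, at a 2.99-fold difference of means (log2 fold change -1.68, SE 0.29, limma adjusted p = 0.000678). Its 383 bases of exon are the shortest exon length among the 79 genes, and 9 named pseudogenes of it are annotated. With length and GC trends across genes removed, the change of Rpl36 was smaller, at -0.91, and still passed.

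The pair that binds 5S ribosomal RNA fell. Rpl5 had 77.4, 50.3 and 61.0 kb in mutants and 125, 128 and 108 kb in controls (log2 fold change -0.95, SE 0.14, limma adjusted p = 0.000248). Rpl11 had 25.5, 11.6 and 14.1 kb in mutants and 44.0, 34.0 and 37.7 kb in controls (-1.26, SE 0.24, adjusted p = 0.00135). Outside the ribosome this pair can bind and inhibit Mdm2, the ubiquitin ligase of p53. Rrs1 and Heatr3, which help to load the pair, also fell, by 0.70 and 0.68 on the log2 scale. Rpl5 shares 24.31% of its exon bases with Fam69a on the opposite strand, and use of strand in the authors' counting is not given in the sources used here.

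Of the list of 13 genes of 5S RNP surveillance, 12 were measured. Besides Rpl5, Rpl11, Rrs1 and Heatr3, Mdm2 fell (-0.27, adjusted p = 0.0446), and 2 rose: Cdkn1a, a cell cycle inhibitor and p53 target (0.60, adjusted p = 0.00528), and Sesn2, a stress-induced inhibitor of mTOR signalling (0.50, adjusted p = 0.00936). Cdkn1a had 82.5, 62.3 and 84.8 kb in mutants and 47.2, 44.4 and 59.9 kb in controls. The other 5, which include Trp53 itself, Bax and Bbc3, did not pass. The share of the list that fell was 41.7%, against 24.6% of all genes, and the share that rose was 16.7%, against 21.5% of all genes, so the 2 rises are no more than the background. The list's median was 0.03, near the -0.03 of all genes.

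Proteins close to the catalytic centre differed in how far their genes moved. Rpl3 had 61.6, 35.0 and 55.8 kb in mutants and 140.4, 117 and 102 kb in controls, which did not overlap (log2 fold change -1.27, SE 0.19, limma adjusted p = 0.000242). Rpl4, whose protein lines the tunnel through which new chains leave, had 481, 474 and 491 kb in mutants and 585, 580.3 and 591 kb in controls. Its change was small but far beyond the spread (-0.28, SE 0.07, adjusted p = 0.007), and with length and GC trends removed it did not pass (adjusted p = 0.191). Rpl8 had 721, 603 and 619.6 kb in mutants and 662, 680.2 and 669 kb in controls, with overlapping groups (-0.05, adjusted p = 0.631).

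Rpl22 and its paralog Rpl22l1, which can take its place in the ribosome, both fell but to different extents. Rpl22 had 253, 225 and 268 kb in mutants and 353, 327 and 342 kb in controls (log2 fold change -0.46, SE 0.09, limma adjusted p = 0.0012). Rpl22l1 had 26.1, 18.7 and 28.2 kb in mutants and 71.7, 71.8 and 51.6 kb in controls, a 2.67-fold difference of means (-1.42, SE 0.17, adjusted p = 5.91e-05). The difference between the 2 changes was not tested.

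Rpl38 and Rpl24 are known from mouse mutants with malformed tails and skeletons. Rpl38 had 7.12, 2.35 and 3.40 kb in mutants and 9.00, 10.6 and 7.60 kb in controls (log2 fold change -1.23, SE 0.36, limma adjusted p = 0.0149). Its groups lay close to each other, and the call was lost without con2 (adjusted p = 0.0599) and with length and GC trends removed (adjusted p = 0.0767). Rpl24 had 10.4, 3.82 and 5.54 kb in mutants and 17.4, 13.8 and 12.3 kb in controls (-1.25, SE 0.31, adjusted p = 0.0065). Rpl13a, which in human monocytes leaves the ribosome after interferon treatment, had 88.3, 66.3 and 84.4 kb in mutants and 128, 122 and 131 kb in controls (-0.68, SE 0.11, adjusted p = 0.000469).

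**Figure D3:**
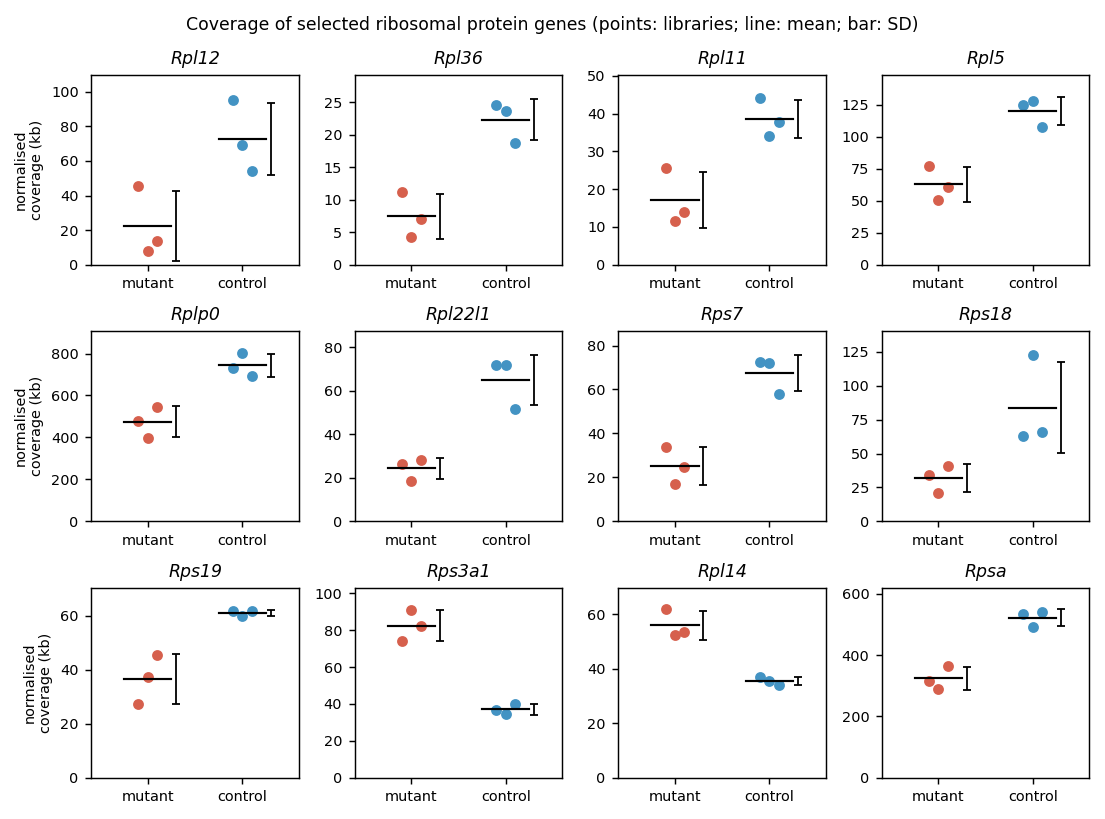
Coverage in kb of 12 ribosomal protein genes in the 3 mutant and the 3 control libraries (points), with the mean as a line and the SD as a bar, each axis starting at 0. The mutant points lie below the control points in 10 genes and above them in Rps3a1 and Rpl14.

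In the small subunit, Rps7 and Rps18 were among the genes with the largest falls. Rps7 had 33.9, 16.8 and 24.6 kb in mutants and 72.7, 71.9 and 58.0 kb in controls (log2 fold change -1.48, SE 0.21, limma adjusted p = 0.000175). It is a Diamond-Blackfan anaemia gene in humans, and its groups were far apart. Rps18, a protein of the subunit's head, had 34.0, 20.7 and 41.1 kb in mutants and 63.1, 123 and 66.0 kb in controls (-1.38, SE 0.27, adjusted p = 0.00151). Its control mean of 83.9 ± 33.5 kb (SD, n = 3) was raised by con2, and the groups did not overlap.

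Rps19, the gene most often mutated in that anaemia, had 27.1, 37.2 and 45.5 kb in mutants and 61.6, 59.7 and 61.8 kb in controls (log2 fold change -0.77, SE 0.16, limma adjusted p = 0.00213). It did not follow the common order of the mutant libraries, as its lowest value was in mut1. Of the 20 genes on the Diamond-Blackfan list, 17 were measured, and 13 of them fell while 4 did not pass (Rps27, Rpl31, Rps15a and Rpl15). That is 76.5% lower and none higher, against 24.6% and 21.5% of all genes. The list's median was -0.77, against -0.81 over the 79 genes.

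Rps6, the small subunit protein phosphorylated by the S6 kinases below mTOR, had 108, 132 and 156 kb in mutants and 197, 197 and 175 kb in controls (log2 fold change -0.54, SE 0.12, limma adjusted p = 0.00378). Here too mut1 was the lowest library. Rpsa, also known as a laminin receptor, had 316, 291 and 365 kb in mutants and 535, 491 and 542 kb in controls (-0.70, SE 0.09, adjusted p = 0.000132). Rps3, at the entry of the mRNA channel, had 601, 475 and 683 kb in mutants and 948, 951 and 969 kb in controls (-0.72, SE 0.11, adjusted p = 0.000406). For these 3 genes the highest mutant value stayed below the lowest control value.

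Rps27a, made as a fusion with ubiquitin, had 30.6, 21.0 and 24.3 kb in mutants and 68.4, 53.4 and 46.4 kb in controls (log2 fold change -1.15, SE 0.17, limma adjusted p = 0.000212). Rps27 had 5.35, 3.10 and 4.68 kb in mutants and 8.51, 6.01 and 6.03 kb in controls, and did not pass (-0.66, SE 0.28, adjusted p = 0.0688) although its groups did not overlap. Its paralog Rps27l, which p53 can induce, had 22.1, 24.4 and 35.2 kb in mutants and 56.7, 65.4 and 53.5 kb in controls and fell (-1.13, SE 0.16, adjusted p = 0.000204). Once trends of length and GC were taken out, the change of Rps27l was -0.51 and still passed.

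The genes that rose were 3, and they kept this call in each of 16 settings of the fit. Rps3a1, whose protein sits where the mRNA leaves the small subunit, had 74.1, 90.9 and 82.0 kb in mutants, a mean of 82.3 ± 8.40 kb, and 36.7, 34.5 and 40.1 kb in controls, a mean of 37.1 ± 2.81 kb (SD, n = 3 each). The mutant mean was 2.22 times the control mean (log2 fold change 1.15, SE 0.11, limma adjusted p = 1.06e-05). Unlike most of the 79 genes, it was highest in mut2. The gene lies at chr3:86137940-86142702 on the minus strand (GRCm38). It is also the single ribosomal protein gene among the 725 genes of the authors' deposited list of higher genes, while 26 of the 79 stand among the 780 genes of their deposited list of lower genes.

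Rpl14, a large subunit protein, had 62.1, 52.4 and 53.4 kb in mutants and 36.8, 35.4 and 33.9 kb in controls (log2 fold change 0.66, SE 0.11, limma adjusted p = 0.000441). The groups did not overlap. Rpl14 lies at chr9:120571444-120574654 on the plus strand (GRCm38). Rpsa lies on the same chromosome, at chr9:120127689-120132369, and fell.

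The 12 genes that did not pass were of several kinds. Rpl37a, Rpl30 and Rps27 had less than 10 kb of coverage in every library. Rpl37a had 5.37, 1.31 and 3.55 kb in mutants and 4.82, 4.70 and 3.40 kb in controls, with overlapping groups (log2 fold change -0.54, SE 0.46, limma adjusted p = 0.358). Rpl31, Rps15a and Rps27 had all mutant values below all control values without passing. Genes of high coverage were among the 12 as well. Rpl41, among the shortest proteins known, had 386, 388 and 404 kb in mutants and 436, 398 and 516 kb in controls (log2 fold change -0.19, limma adjusted p = 0.13). Rpl15 had 158, 191 and 161 kb in mutants and 179.5, 174 and 167 kb in controls (-0.03, adjusted p = 0.792). Rpl13, Rpl29, Rps4y2 and Rps19bp1 had overlapping groups as well.

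Levels of different genes can be compared only per length, here as coverage per annotated exon base (GENCODE vM21). On that scale the median of the genes was 19.5 in mutants and 37.8 in controls. Among the small subunit genes of high level were Rps15, with 315 in mutants and 615 in controls, and Rps3, with 131 in mutants and 213 in controls. Rps15, which in human cells is needed for export of the subunit from the nucleus, had 207, 146 and 242 kb in mutants and 351, 420.0 and 391 kb in controls (log2 fold change -0.99, SE 0.15, limma adjusted p = 0.000327).

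The highest large subunit genes in controls were Rplp1, with 324 per exon base in mutants and 573 in controls, then Rpl32, with 270.1 in mutants and 507 in controls, and Rpl8, with 477 in mutants and 493 in controls. Rpl32 had 269.6, 214 and 297 kb in mutants and 498, 494 and 473 kb in controls (log2 fold change -0.92, SE 0.11, limma adjusted p = 5.26e-05). Among these 3 large subunit genes the order in mutants was another one, with Rpl8 first. Exon lengths are the union over annotated transcripts and can exceed the length in use, so levels of genes with many annotated exons are understated.

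The fall was found at high and at low coverage. Among the 40 genes in the upper range of mean coverage, 34 fell and 2 rose, with a median log2 fold change of -0.72, and among the other 39, 30 fell and 1 rose, with a median of -0.97. Short genes as a class also had less coverage in mutants. Among other protein-coding genes the median log2 fold change was -0.19 at exon lengths up to 1000 bases, -0.14 from there to 2000, -0.05 from there to 5000 and 0.03 above. The ribosomal protein genes in these ranges had medians of -0.96 (9 of 11 fell), -0.72 (24 of 33), -0.77 (30 of 33) and -0.75 (1 of 2). Of the other protein-coding genes, 36.4% fell at exon lengths up to 1000 bases, 30.8% from there to 2000 and 25.5% from there to 5000. The share of them that fell above 5000 bases was lower still. With trends of exon length and GC content across all genes removed, 56 of the 79 fell and 3 rose, and the medians were -0.57 for the large and -0.60 for the small subunit.

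Ribosomal protein genes have many near-identical copies in the genome, and reads may be split among them or lost, depending on a handling of multiply mapped reads that is not given in the sources used here. In the annotation 57 of the 79 had at least 1 named pseudogene, and of these 49 fell and 1 rose (median -0.86). Of the 22 with none, 15 fell and 2 rose (median -0.66). Only pseudogenes named for the gene with -ps were counted, so these 22 may have copies under other names. At least 5% of exon bases lay within another gene's exons for 17 genes, of which 15 fell (median -0.96), whereas 49 of the other 62 fell and 3 rose (median -0.76). Examples of such overlap are Rpl35, with 66.16% of its exon bases shared with Wdr38, and Rpl23a, with 59.74% shared with Tlcd1, both on the opposite strand.

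SnoRNA genes lie inside 30 of the 79, and here the guest RNA fell further than its host in nearly every measured case. Of the 30 hosts 27 fell and 1 rose (median log2 fold change -0.82), and of the 49 genes without a snoRNA gene 37 fell and 2 rose (median -0.77). The annotation places 58 snoRNA genes inside them, of which 29, in 20 hosts, are in the table. Of these 29, 28 fell, where 24.6% of all genes fell, and 27 had a lower log2 fold change than their host. Their median was -2.75, with a range of -4.07 for Snora64 in Rps2 to -0.13 for Snord15b in Rps3. Some, such as Snora33 (mean 0.70 kb in mutants, 5.24 kb in controls) and Snora69 (0.46 and 5.57 kb), exceeded 3400 units in controls alone. The table's filter favours a fall in such genes. The snoRNA genes not in the table could not be examined.

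Rps3a1 and its guests moved in opposite directions. Both snoRNA genes measured inside it fell while the host rose: Snord73a had 36.1, 2.77 and 6.97 kb in mutants and 42.9, 42.3 and 33.4 kb in controls (log2 fold change -2.15, limma adjusted p = 0.0188). Rnu73b had 37.9, 3.29 and 8.38 kb in mutants and 87.1, 83.3 and 43.5 kb in controls (-2.75, adjusted p = 0.00482). In mut1 both were far above mut2 and mut3, whereas Rps3a1 was lowest in mut1.

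Rpl3 and Rpl13a give the same contrast in size. Snord83b in an intron of Rpl3 had 703, 215 and 559 kb in mutants and 3228, 2681 and 1903 kb in controls (-2.54, adjusted p = 0.000135), more than its host in every library, so the coverage of the snoRNA was not added in full to the value of Rpl3. Snord35a in Rpl13a had 393, 75.0 and 190.4 kb in mutants and 1737, 1279 and 924 kb in controls (-2.84, adjusted p = 0.000357). Among the measured snoRNA genes, 17 of 19 with names of the box C/D class were ordered mut1, mut3, mut2 from high to low. Of the box H/ACA class 2 of 10 had this order, a share near the 19.5% of all genes.

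**Figure D4:**
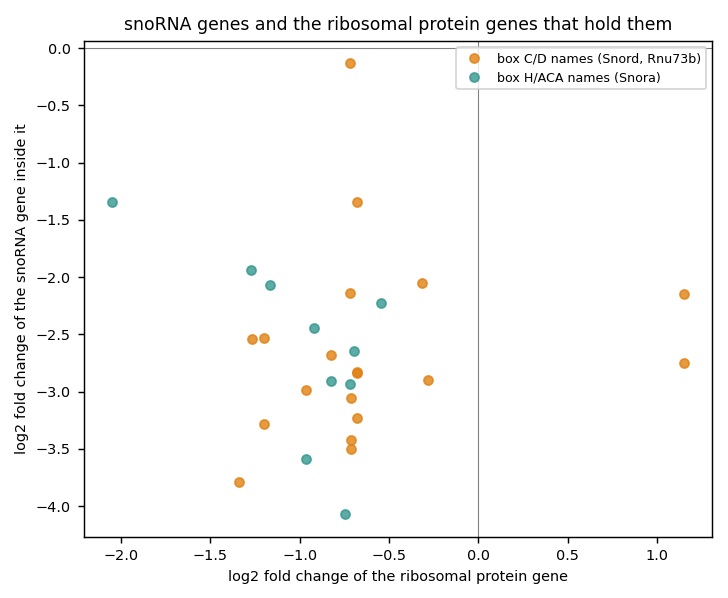
Each point is 1 of the 29 measured snoRNA genes, with the log2 fold change (mutant over control) of its host ribosomal protein gene on the x axis and its own on the y axis. All points lie below 0 on the y axis, and the 2 points at the right are those inside Rps3a1.

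RefSeq start windows were found for 59 of the 79 genes, 69 windows in all. The comparison below is with the 27025 genes that had a window, which were not limited to the 13203 genes tested. A C followed by at least 6 pyrimidines, on the gene's strand and beginning within 20 bases of the start, was found in 33 of the 59 (55.9%), against 22.6% of 27025 genes. Of the 33 genes with the run 27 fell (median log2 fold change -0.95), and of the 26 without it 22 fell (median -0.72). The stretches printed above hold both kinds. Other letters were searched on both strands over 250 bases before to 50 after the start. CCGGAAG was found in 39.0% of the 59 genes, against 9.93% of the 27025, and CTCGCGAGA in 8.47%, against 0.762%. TATAAA, on the gene's strand within 50 bases before the start, was found in 1.69% (Rpl22l1), against 3.15% of the 27025. Annotated starts can lie some bases from the start in use, which limits these counts.

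Some ribosomal proteins have names outside the rule. Fau, made as a fusion of a ubiquitin-like protein with Rps30, had 46.8, 24.5 and 44.4 kb in mutants and 70.3, 63.6 and 78.9 kb in controls (log2 fold change -0.93, SE 0.20, limma adjusted p = 0.00327). It fell, with no overlap of the groups. Gnb2l1, the scaffold protein Rack1 of the small subunit, did not pass, with 1257, 1126 and 1113 kb in mutants and 1191, 1213 and 1287 kb in controls (-0.08, adjusted p = 0.44).

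Genes that help to build ribosomes also had less coverage in mutants. Of 36 assembly factors measured, 29 fell, none rose and 7 did not pass, with a median log2 fold change of -0.58. The share that fell was 80.6%, against 24.6% of all genes. The changes of greatest size were those of Fbl, which methylates ribosomal RNA with box C/D snoRNAs (-2.04, limma adjusted p = 0.000205), Gnl3, a nucleolar GTPase of progenitor cells (-1.30, adjusted p = 1.96e-05), and Rpf2, which with Rrs1 loads the 5S particle (-0.90, adjusted p = 0.0115). Fbl had 6.17, 3.18 and 2.82 kb in mutants and 18.5, 16.9 and 12.4 kb in controls.

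Other messages are known to begin with a TOP motif. Of 25 measured, 15 fell, 1 rose and 9 did not pass (median -0.54), where 24.6% of all genes fell and 21.5% rose. Many of these genes, such as Eif3h and Eef1d, are also counted among the initiation or elongation factors below. Of the 12 measured in neither of those lists, 10 fell and 1 rose (median -0.65). Naca, a subunit of the complex that shields nascent chains, fell by 1.07 (adjusted p = 0.00026), Eif3h by 1.03 (adjusted p = 0.000442) and Eif3e by 0.95 (adjusted p = 0.00443) on the log2 scale. The one that rose was Vim, the intermediate filament vimentin of mesenchymal cells (0.45, adjusted p = 0.001).

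Among initiation factors 22 of 38 fell (57.9%, against 24.6% of all genes), 1 (Eif4e2) rose (2.63%, against 21.5%) and 15 did not pass (median -0.34). Eif3m, a subunit of eIF3, fell by 1.42 (adjusted p = 0.000166). Among 7 genes named for elongation factors 4 fell (57.1%), 1 (Eef2k, a kinase that inhibits eEF2) rose and 2 did not pass (median -0.36). Eef1d, a subunit of the factor that recharges eEF1A, fell by 0.89 (adjusted p = 4.22e-05). The 2 that did not pass were Eef1a1 and Eef2, which carry out elongation itself and are also TOP messages. Eef1a1 had 2304 to 2731 kb in mutants and 2702 to 2814 kb in controls, and Eef2 had 2821 to 3153 kb in mutants and 2750 to 2963 kb in controls.

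Of 22 regulators of ribosomal protein and ribosomal RNA transcription or translation 8 fell, 1 (Eif4ebp2) rose and 13 did not pass (median -0.16). The share that passed in either direction was below the 46.1% of all genes, and the share that fell was 36.4%, against 24.6% of all genes. Mycn, a transcription factor expressed in nephron progenitors, had 57.1, 51.2 and 49.4 kb in mutants and 111, 113 and 110.4 kb in controls (-1.09, SE 0.09, limma adjusted p = 4.86e-06). Myc, which activates ribosome genes, had 38.3, 37.5 and 38.9 kb in mutants and 69.8, 81.4 and 71.5 kb in controls (-0.95, SE 0.10, adjusted p = 1.92e-05). Taf1d, of the RNA polymerase I factor SL1, fell by 0.95 (adjusted p = 0.00116). The groups of Mycn and Myc were far apart and their mutant values nearly equal.

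The mitochondrial ribosome has its own proteins, which make up a separate large and small subunit. Of 75 genes named Mrpl or Mrps, 33 fell, none rose and 42 did not pass, with a median log2 fold change of -0.34. The share that fell was 44.0%, against 24.6% of all genes, of which 21.5% rose. In the mitochondrial large subunit 25 of 47 fell (53.2%, median -0.42), and in the small subunit 8 of 28 (28.6%, median -0.27), a share close to that of all genes. The order mut1, mut3, mut2 was found for 11 of the 75, against 44 of the 79 genes of the cytosolic ribosome and 19.5% of all genes. Whether the 2 sets differ was not tested.

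**Figure D5:**
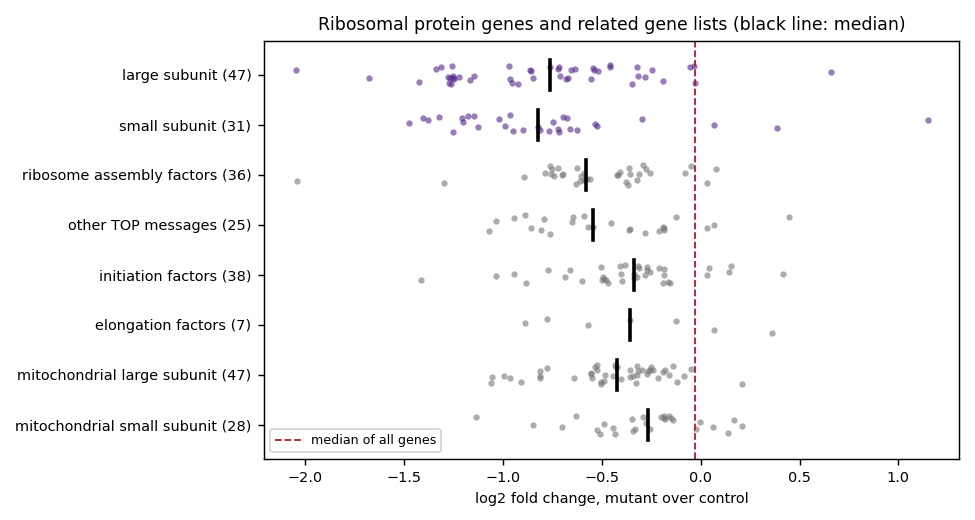
Log2 fold change (mutant over control) of each measured gene of the 2 cytosolic subunits and of 6 related lists, with black lines for medians and a dashed line for the median of all genes at -0.03. The medians run from -0.83 for the small subunit to -0.27 for the mitochondrial small subunit. Some genes stand in more than 1 list.

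Coverage of markers of several cell types differed between the groups, and fewer cells cannot be told apart from less RNA per cell here either. The counts below stand against 24.6% of all genes that fell and 21.5% that rose. Summed coverage of 10 proximal tubule markers was 910 to 1137 kb in mutants and 4026 to 4990 kb in controls, and all 10 fell. For 10 nephron progenitor markers it was 356 to 482 kb in mutants and 637 to 710 kb in controls, and 8 fell while Crym and Osr1 rose. For 11 stroma markers it was 9555 to 12020 kb in mutants and 5194 to 5447 kb in controls, and 10 rose. Leukocyte markers (8 of 10 measured rose) summed to 207 to 249 kb in mutants and 106 to 127 kb in controls. Erythroid markers (6 of 8 measured rose) summed to 9009 to 9612 kb in mutants and 4489 to 4694 kb in controls. Another 2 of the 12 leukocyte and 8 of the 16 erythroid markers listed were not in the table and could not be examined. Of 9 endothelium markers 4 rose and 1 fell, with sums of 1448 to 1459 kb in mutants and 1210 to 1286 kb in controls. None of these sums was at or near 0 in either group, and their part in the change of the ribosomal protein genes was not tested. Miox of the proximal tubule markers (mean 2.03 kb in mutants) and Meox2 of the progenitor markers (1.66 kb) exceeded 3400 units in controls alone.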

How the data were processed

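RNA of 6 whole kidneys (3 mutant, 3 control, 1 library each) was depleted of ribosomal RNA with a RiboMinus kit and made into libraries with an Ion Total RNA-seq kit, per the labels' protocols. Build mm10 and the tool bedtools are named in the submitters' processing notes, without versions. The sources used here do not give the aligner, annotation, use of strand or handling of multiply mapped reads. The deposited table gives a coverage signal per gene, which the authors scaled to nearly equal library totals (976.284 to 976.642 Mb). Low values of each library were whole multiples of 1 step (100% within 0.02 of a step), from which the unscaled bases were computed. In mut1 the lowest value was 21 steps, so its unscaled total is less certain. They are numbers of bases and the number of reads is unknown, so a test for read counts did not apply, and precision is seen only in the spread between libraries. The authors also deposited, per gene, a ratio of group means with a p-value and a q-value, and lists of higher and lower genes. How the p-value and q-value were made is not described in the file headers, and these columns entered no test here.

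Values were tested as log2(value + 1) with limma 3.58.1 in R 4.3.3 (moderated, mean-variance trend, two-sided, Benjamini-Hochberg over 13203 genes, threshold 0.05), with all 6 libraries and no covariate. The deposited columns are named by group and number and were not tied to single animals. A requirement of a value above 1 in 3 libraries removed 0 genes. The fit was checked on simulated data. Fold changes are mutant over control. Separate kidneys are the replicates, and whether they came from separate litters is not given.

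Gene positions and exon lengths came from GENCODE vM21 (GRCm38), where 12437 names matched directly, 656 through an older symbol, and 79 of the 79 ribosomal protein genes. Start windows came from RefSeq (GRCm38.p6). The genes, the related lists and the choice of tests were made with earlier results of these data known. Genes given with every library's value were the 6 largest falls and up to 6 largest rises past the threshold (3 rose), a fixed group from Rpl5 to Rps27l, and the 3 genes of each subunit with the highest coverage per exon base in controls. A few genes under this rule are left out here. Up to 3 genes of each related list with the largest change past the threshold were named. Rplp1, Rplp2, Rpl4, Rpl15, Rpl37a, Rpl41, the snoRNA genes, Heatr3, Mdm2, Cdkn1a, Sesn2, Vim, Eif4e2, Eef2k, Eef1a1, Eef2, Eif4ebp2 and genes named as not passing were chosen after their values were seen. Alternatives were other pseudocounts, scalings, filters and weights, removal of length and GC trends, and leaving out each library.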

Additional observations from a re-analysis of the deposited data

How the results depend on the processing

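Over 16 settings (the one reported, other pseudocounts, scalings and filters, no mean-variance trend, array weights, length and GC trends removed, and each library left out), the number of ribosomal protein genes that fell was 56 to 65, and 3 rose in every one, Rps3a1 and Rpl14 among them. Of the 64 that fell, 52 kept that call in every setting that tested them, and no called gene changed sign. The other 12 were Rpl28, Rps26, Rpl37, Rpl23, Rpl38, Rpl6, Rps13, Rpl36a, Rpl4, Rplp1, Rpl23a and Rps21. Rpl4 (adjusted p = 0.191) and Rplp1 (adjusted p = 0.0564) lost it with length and GC trends removed, and Rpl38 there (0.0767) and without con2 (0.0599). Rps27 gained it without mut1 (adjusted p = 0.0441), Rpl13 without mut3 (0.00335) and Rpl31 without the mean-variance trend (0.0286). With length and GC trends removed, the small subunit median was -0.60 and 2 mitochondrial ribosomal protein genes rose, and the cause was not tested. Without the hosts of snoRNA genes 37 of 49 fell, a share of 75.5%, against 81.0% of the 79 genes and 90.0% of the hosts. The difference between these shares was not tested. Leaving out 1 library gave 58 to 65 falling genes, medians of -0.98 to -0.63 for the large and -0.92 to -0.73 for the small subunit, and 2528 to 3163 falling and 2243 to 2667 rising genes over the whole table. Another 2 alternatives were chosen after seeing the data: genes with under 5% exon overlap (49 of 62 fell) and genes above 3400 units in both groups (62 of 77 fell). Depth limits the lowest genes, which had 2706 unscaled bases in mut1 (Rps13), 1625 in mut2 (Rpl37a) and 2208 in mut3 (Rpl28), and 3321 to 3918 in controls. No paired analysis was possible because the deposited columns carry no animal number and the numbers in the sample titles are not shared between the groups.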

Other observations

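The 4 genes whose names carry -ps, left out of the 79, were in the table. Rpl31-ps12 had 62.8, 100.1 and 93.4 kb in mutants and 80.5, 83.3 and 95.8 kb in controls (log2 fold change -0.04, limma adjusted p = 0.837). Rps15a-ps4 fell by 0.56 (adjusted p = 0.000825) and Rps15a-ps6 by 0.32 (adjusted p = 0.0223) on the log2 scale, and Rps15a itself did not pass. Rps19-ps3 had 120.0, 13.0 and 30.0 kb in mutants and 110, 112 and 118 kb in controls (-1.65, SE 0.56, adjusted p = 0.0306), so 1 mutant library lay above every control and the other 2 far below. Reads of such copies and of the genes they derive from may be exchanged, which was not tested.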
